A study of Mus musculus with 20 samples.

Results

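Mast cell genes were followed in the diaphragm of mice that had received asbestos fibers or carbon nanotubes in the pleural cavity. The set held 8 genes that mark mast cells: the granule proteases *Cma1*, *Mcpt4*, *Tpsb2* and *Cpa3*, the receptor genes *Kit*, *Ms4a2* and *Fcer1a*, and *Hdc*. Every noncontrol probe whose gene name in the scanner output was one of these was taken, which gave 9 probes (10 spots) of the 55681 noncontrol probes on the array, which carry 34797 gene names. *Tpsb2* had 2 probes, and each other gene had 1. Gene levels are reported as log2 of the processed signal minus the 75th percentile of the same array, so a level of 0 is the brightness of the 75th percentile spot.

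The 20 samples were female C57Bl/6 mice that were 8 weeks old at injection, with 4 mice in each of 5 groups. Control mice received the vehicle, bovine serum albumin in saline. SFA mice received 25 µg of amosite asbestos that had been shortened, LFA mice 25 µg of amosite enriched for long fibers, NTS mice 5 µg of short carbon nanotubes, and NTL mice 5 µg of long carbon nanotubes. All 4 materials were given once by intrapleural injection in the same vehicle, and the diaphragm was collected 12 weeks later. Part of it was frozen and the rest fixed, and each array held total RNA of the frozen part from 1 mouse. The asbestos and nanotube doses differed by mass, so the LFA and NTL values are given side by side. Both amosite samples came from the same batch. The short nanotubes were a commercial product and the long ones were made in an academic laboratory. Length and source therefore cannot be told apart between NTL and NTS mice.

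Mast cells are tissue-resident immune cells that mature under KIT ligand and fill their granules with proteases, histamine and heparin. Antigen bound to IgE on the high-affinity receptor FcεRI triggers release of the granules and the synthesis of leukotrienes and prostaglandin D2. Connective tissue mast cells of the mouse, the type found in muscle and in serosal linings, are known for carboxypeptidase A3, the chymases of *Cma1* and *Mcpt4*, and the tryptase of *Tpsb2*.

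The probe sequences of the genes on which the comparison turns are shown first, since a level on this array is the signal of a single oligonucleotide. The opening 30 bases of 4 of the 60-base probes are given 5′ to 3′, with the NCBI37 positions from the scanner annotation. The *Hdc* probe lies at chr2:126419516-126419575 on the minus strand. The brighter *Tpsb2* probe lies at chr17:25504819-25504878 and the other at chr17:25504493-25504552, both on the plus strand. The *Cma1* probe, on the minus strand, is annotated at chr14:56561491-56562550, a span of 1060 bases for 60 bases of probe.
Hdc: ttgatcataacctcacagggtcttcgtgat
Tpsb2, brighter probe: gggctgtgctgtctttaactcactgcttcc
Tpsb2, other probe: ttttcccattgtccatgatggcatgctgtg
Cma1: tcactgtgcgggaaggtctataacagtcct
The *Tpsb2* probes do not overlap in the genome. How far either of them also binds RNA of the neighboring tryptase genes was not tested.

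Proximal promoters were read from RefSeq (GRCm38.p6) for 7 of the 8 genes. GATA2 and MITF are transcription factors on which mast cells depend, so the 250 bases before each transcription start were searched on both strands for GATAA (which reads TTATC from the opposite strand) and for the E-box words CATGTG (read as CACATG there) and CACGTG. The word GATAA was present in 22.6%, CATGTG in 12.3% and CACGTG in 6.02% of 32851 mouse promoters of the same length. The promoters of *Hdc* (chr2:126618679-126618928), *Cpa3* (chr3:20242182-20242431), *Fcer1a* (chr1:173227230-173227479) and *Mcpt4* (chr14:56062311-56062560), all on the minus strand, are shown with the matches in capitals.
Hdc: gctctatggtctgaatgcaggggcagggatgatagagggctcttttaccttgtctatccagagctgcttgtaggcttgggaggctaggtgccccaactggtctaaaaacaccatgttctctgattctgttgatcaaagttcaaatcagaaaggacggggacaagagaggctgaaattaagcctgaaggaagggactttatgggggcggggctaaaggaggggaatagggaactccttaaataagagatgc
Cpa3: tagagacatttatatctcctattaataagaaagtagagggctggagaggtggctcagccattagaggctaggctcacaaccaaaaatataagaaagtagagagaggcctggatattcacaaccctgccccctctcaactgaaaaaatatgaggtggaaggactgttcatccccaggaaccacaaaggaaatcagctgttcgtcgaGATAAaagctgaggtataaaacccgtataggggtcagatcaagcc
Fcer1a: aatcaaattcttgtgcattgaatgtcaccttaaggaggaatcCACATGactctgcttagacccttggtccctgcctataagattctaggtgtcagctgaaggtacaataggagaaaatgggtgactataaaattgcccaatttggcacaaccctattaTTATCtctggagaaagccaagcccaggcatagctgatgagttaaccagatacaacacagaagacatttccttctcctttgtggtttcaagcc
Mcpt4: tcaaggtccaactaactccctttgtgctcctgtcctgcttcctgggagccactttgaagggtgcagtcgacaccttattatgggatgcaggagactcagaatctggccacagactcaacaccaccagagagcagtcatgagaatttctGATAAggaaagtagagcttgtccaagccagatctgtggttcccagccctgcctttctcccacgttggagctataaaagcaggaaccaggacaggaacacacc
The *Cpa3* and *Mcpt4* windows held 1 GATAA word each, the *Fcer1a* window 1 GATAA and 1 CATGTG word, and the *Hdc* window none of the 3 words. The *Cma1* window held 1 GATAA word and that of *Ms4a2* 3, and both annotated starts of *Kit* held none. A word is a description of the sequence and not a binding site.

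On the 20 arrays, 53.0% to 68.1% of noncontrol spots were well above background, the signal at the 75th percentile ran from 292 to 991, and no spot was saturated. Tests covered the 36931 probes that stood well above background on 4 arrays or more, and a probe was called when its change was at least 2-fold with an adjusted p under 0.05. All 10 skeletal muscle markers examined were well above background on every array, as fits the labeled tissue. The median of all tested probes moved by −0.28 in LFA and −0.25 in NTL mice against controls on the log2 scale, and by −0.08 and −0.09 after quantile normalization, so each change below is read against that shift. The labels do not say whether the 4 mice of a group were housed or injected together, and p-values measure the spread between these mice.

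Of the 8 genes, 7 were measurable, 1 was called in both groups that received long material, and 6 were not. *Hdc* encodes histidine decarboxylase, the enzyme that makes histamine. It rose 3.13-fold in LFA and 2.50-fold in NTL mice, whereas none of the granule proteases, *Kit* or *Fcer1a* was called in either group. *Ms4a2*, the β chain of FcεRI, was not well above background on any of the 20 arrays, so it had no measurable level. In bulk tissue, a change in the number of mast cells and a change in RNA per cell cannot be told apart.

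**Figure D1:**
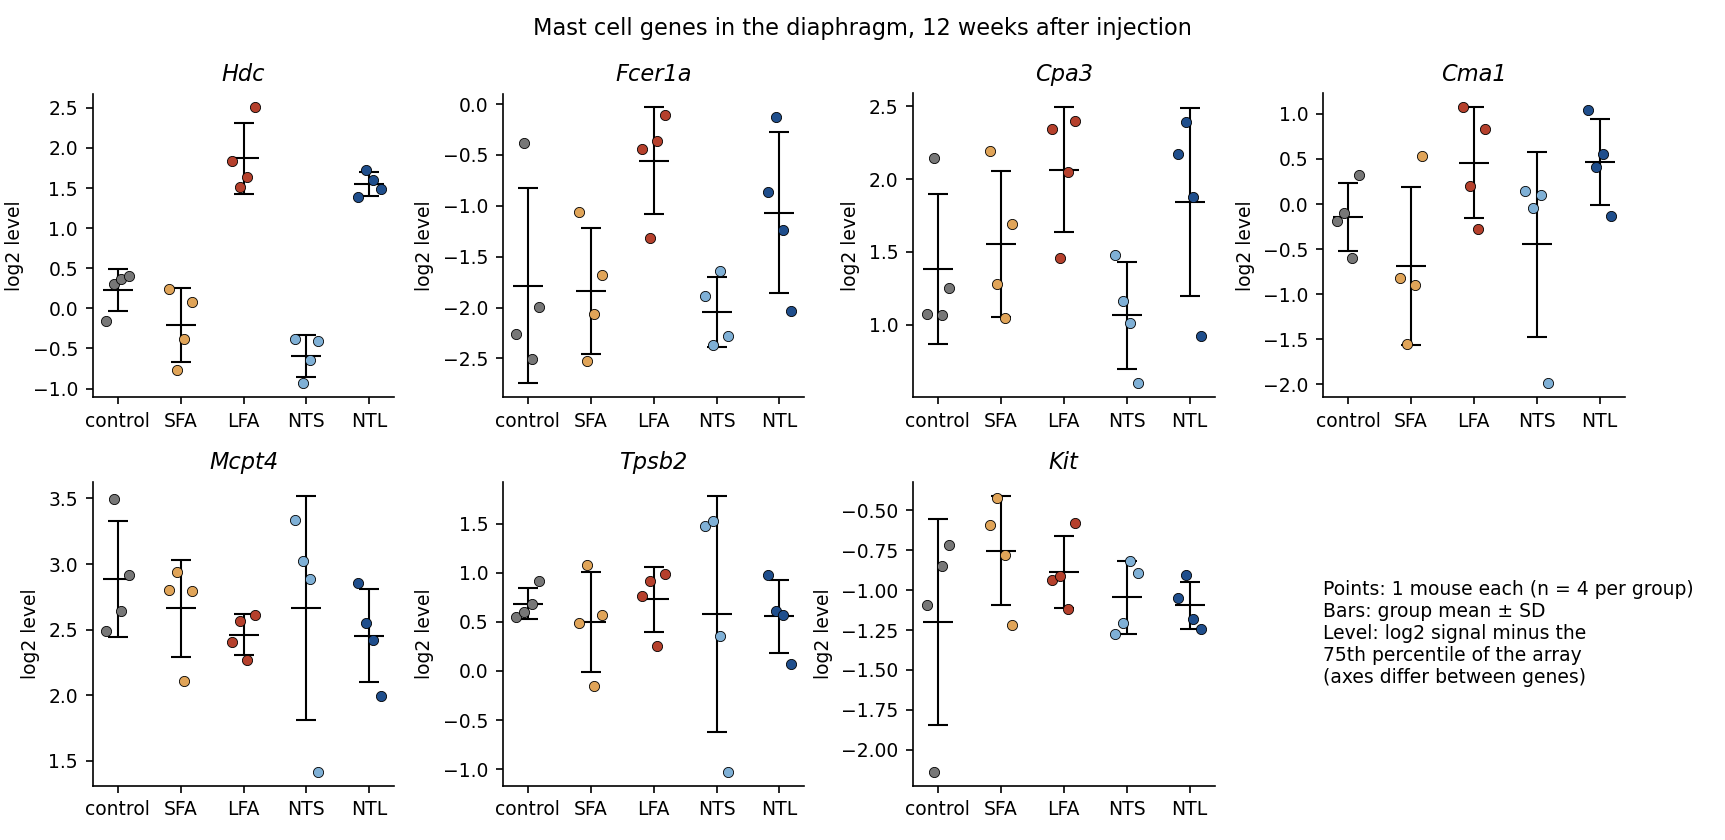
Log2 level (y axis; log2 processed signal minus the 75th percentile of the array) of the measurable mast cell genes in the 5 groups (x axis); points are mice (n = 4 per group) and bars show the mean ± SD. *Hdc* in LFA and NTL mice lies between 1.39 and 2.51, above every control mouse (−0.16 to 0.41), whereas *Mcpt4*, *Tpsb2* and *Kit* overlap between all groups.

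*Hdc* levels in the 4 control mice were −0.16, 0.31, 0.36 and 0.41. In LFA mice they were 1.83, 1.51, 1.64 and 2.51, and in NTL mice 1.39, 1.73, 1.60 and 1.49. Every mouse given long material therefore stood above every control mouse. The change was 1.64 ± 0.26 (log2, SE, 95% interval 1.09 to 2.20, adjusted p = 0.00241, limma) in LFA and 1.32 ± 0.26 (0.77 to 1.88, adjusted p = 0.00514) in NTL mice, n = 4 each. Of all tested probes, 2.21% were called higher in LFA and 3.64% in NTL mice, against 1 of the 7 measurable genes in each. Within the 3 slides on which the arrays were printed, the LFA change was 1.67, 1.76 and 1.15, and within the 2 slides that held both NTL and control mice the change was 1.31 and 1.25.

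In mice given short material, *Hdc* levels were 0.24, −0.76, −0.39 and 0.08 for SFA and −0.38, −0.94, −0.65 and −0.40 for NTS. The SFA mice overlapped with the controls, and all 4 NTS mice lay below all 4 controls. The change against controls was −0.44 (95% interval −0.99 to 0.12, adjusted p = 0.999, limma) in SFA and −0.82 (−1.37 to −0.27, unadjusted p = 0.0059, adjusted p = 0.9999, limma) in NTS mice. Neither was called. No probe of the array was called in the comparison of SFA or of NTS with controls (0% called), 850 and 1300 probes had an unadjusted p under 0.05, and 0.887% of probes had every NTS array below every control. The NTS difference was −0.93 and −0.73 within the 2 slides that held both groups.

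The direct comparison of long with short material gave the widest separation of *Hdc*. It was 4.23-fold higher in LFA than in SFA mice (log2 change 2.08, 95% interval 1.53 to 2.63, adjusted p = 0.000532, limma), a comparison in which 1.03% of probes were called higher. It was 4.42-fold higher in NTL than in NTS mice (2.14, 1.59 to 2.70, adjusted p = 8.91e-05, limma), where 4.92% of probes were called higher. The difference between these long-to-short changes was −0.06 (95% interval −0.84 to 0.72), and LFA exceeded NTL by 0.32 (−0.23 to 0.87, unadjusted p = 0.237 by limma). Neither was called, and no probe of the array was (0%), with 1279 and 569 probes at an unadjusted p under 0.05. The interval leaves room for a difference of up to 0.87 on the log2 scale between LFA and NTL mice. Ordered by group mean, *Hdc* ran from LFA (1.87 ± 0.44, SD) over NTL (1.55 ± 0.15), control (0.23 ± 0.26) and SFA (−0.21 ± 0.46) to NTS (−0.59 ± 0.26). In that order only NTL and control were separated beyond the spread between mice, since SFA and NTS mice overlapped as well.

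*Fcer1a*, the IgE-binding chain of FcεRI, was the next to *Hdc* in size of change. Its control levels were −2.26, −0.38, −2.51 and −1.998, its LFA levels −0.44, −1.31, −0.36 and −0.11, and its NTL levels −0.86, −0.13, −1.24 and −2.04. Control replicate 2 stood well above the other controls and within the range of the mice given long material, so the groups overlapped. The change was 1.23 ± 0.47 (95% interval 0.26 to 2.21, unadjusted p = 0.0163, adjusted p = 0.122, limma) in LFA and 0.72 (−0.26 to 1.70, adjusted p = 0.374) in NTL mice, and neither was called. Without control replicate 2, the LFA change was 1.70 with an adjusted p of 0.0378 by limma, and *Fcer1a* was then called, whereas the NTL change was 1.19 (adjusted p = 0.109) and was not. Against the short materials, *Fcer1a* differed by 1.28 in LFA (adjusted p = 0.264, limma) and by 0.98 in NTL mice (adjusted p = 0.200, limma). SFA and NTS levels ran from −2.53 to −1.06.

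*Cpa3* encodes mast cell carboxypeptidase A, a granule exopeptidase. Its control levels were 1.08, 2.15, 1.06 and 1.25, its LFA levels 2.34, 1.46, 2.05 and 2.40, and its NTL levels 2.17, 2.39, 1.87 and 0.93. Control replicate 2 was again higher than the other controls, and NTL replicate 4 was the lowest of all mice given long material. The change was 0.68 in LFA (95% interval −0.07 to 1.43, adjusted p = 0.250, limma) and 0.46 in NTL mice (−0.29 to 1.21), so neither change was called and both intervals include 0. SFA mice averaged 1.55 ± 0.50 (SD) and NTS mice 1.06 ± 0.37.

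The chymase gene *Cma1* had control levels of −0.19, −0.10, −0.60 and 0.32. LFA mice had 1.07, 0.20, −0.28 and 0.84, NTL mice 1.04, 0.41, 0.55 and −0.13, and all groups overlapped. The change was 0.60 (95% interval −0.42 to 1.62) in LFA and 0.61 (−0.41 to 1.63) in NTL mice, and the difference between LFA and SFA was 1.14 (unadjusted p = 0.0304, adjusted p = 0.336, limma). NTS replicate 4 had −1.99, whereas the other 3 NTS mice lay between −0.05 and 0.14.

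*Mcpt4*, the main chymase of connective tissue mast cells in the mouse, had a mean level of 2.89 ± 0.44 (SD) in control, 2.66 ± 0.37 in SFA, 2.46 ± 0.16 in LFA, 2.67 ± 0.86 in NTS and 2.45 ± 0.36 in NTL mice. The mice given long material were not higher than controls in this gene. The estimate was −0.42 in LFA (95% interval −1.16 to 0.32) and −0.43 in NTL mice (−1.17 to 0.31), close to the median shift of all probes. These intervals end below those of *Hdc*, which begin at 1.09 in LFA and 0.77 in NTL mice.

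The brighter *Tpsb2* probe, for the tryptase mast cell protease 6, averaged 0.69 ± 0.16 (SD) in control, 0.50 ± 0.51 in SFA, 0.73 ± 0.33 in LFA, 0.58 ± 1.20 in NTS and 0.55 ± 0.37 in NTL mice. Its change was 0.04 (95% interval −0.86 to 0.95) in LFA and −0.13 (−1.04 to 0.78) in NTL mice. The other *Tpsb2* probe gave 0.20 and 0.05, so the probes differed little and neither was called. NTS levels were the most scattered, at 1.47, 1.53, 0.35 and −1.03.

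*Kit*, the receptor for stem cell factor, is needed for mast cell survival and is also expressed by interstitial cells of Cajal, melanocytes and hematopoietic progenitors. It averaged −1.20 ± 0.65 (SD) in control, −0.75 ± 0.34 in SFA, −0.89 ± 0.23 in LFA, −1.05 ± 0.23 in NTS and −1.10 ± 0.15 in NTL mice. The change was 0.31 (95% interval −0.27 to 0.90) in LFA and 0.10 (−0.48 to 0.69) in NTL mice. Control replicate 2, at −2.14, was the lowest of all 20 mice in *Kit* but the highest control in *Cpa3*, *Fcer1a* and *Mcpt4*, and its array was the dimmest of the series, with a 75th percentile signal of 292. Whether the brightness of the array bears on these levels was not tested.

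**Figure D2:**
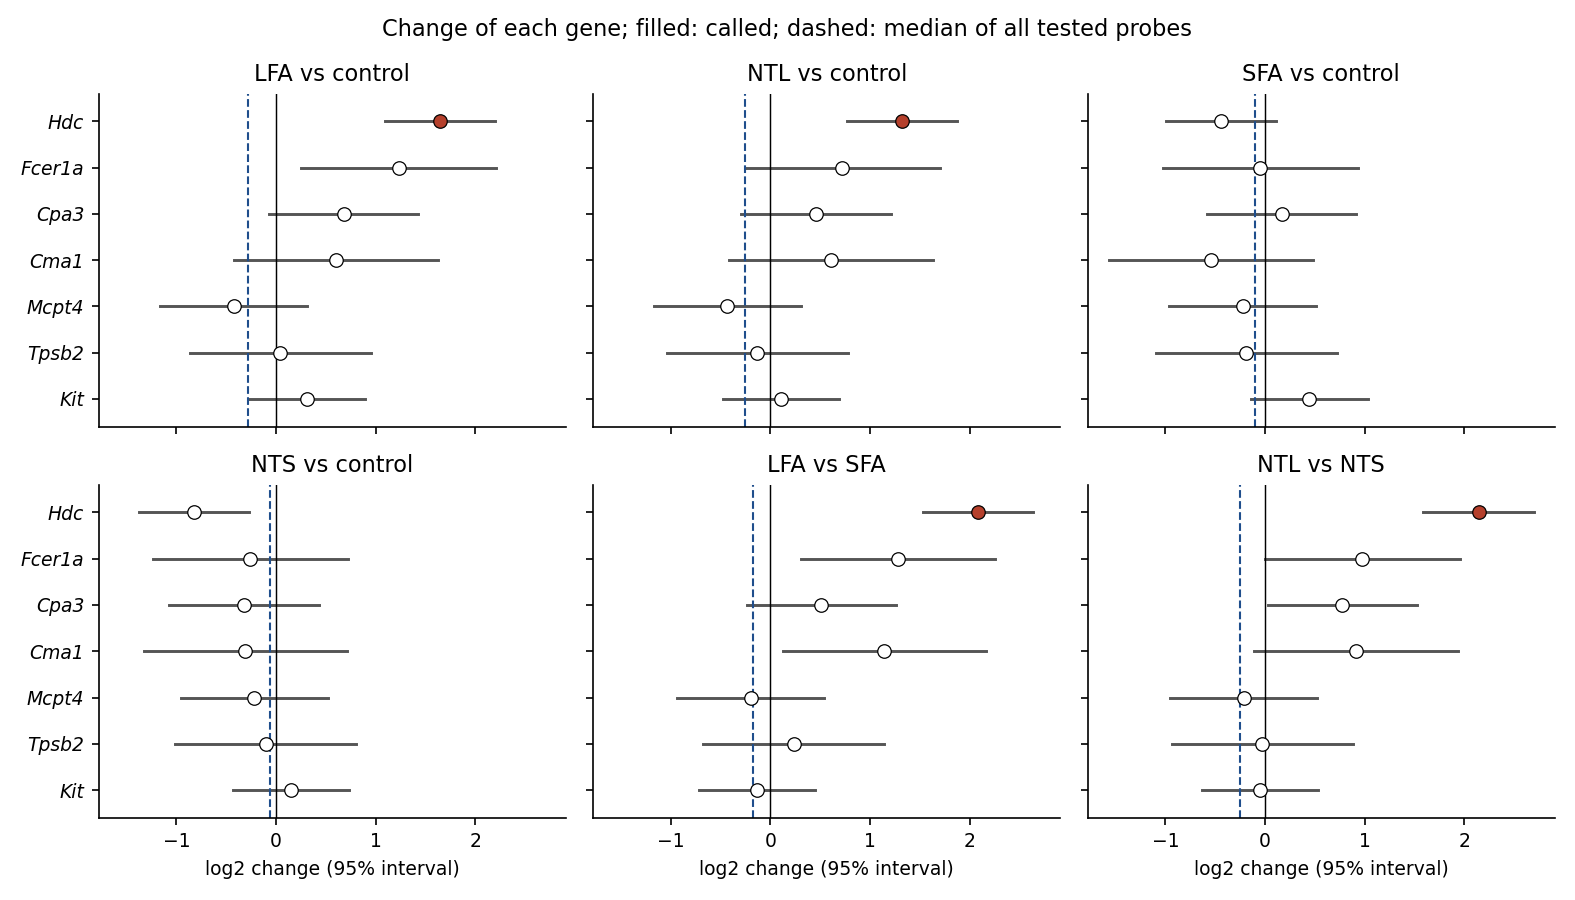
Log2 change (x axis, points) with its 95% interval (bars) for each mast cell gene (y axis) in the comparisons named above the panels; filled points were called at 2-fold and an adjusted p under 0.05, and the dashed line is the median of all tested probes. *Hdc* is the only filled point where long material is compared with controls or with short material, at 1.64, 1.32, 2.08 and 2.14.

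Over the 7 measurable genes, the median change was 0.60 in LFA and 0.46 in NTL mice against controls, beside −0.28 and −0.25 for all probes. It was −0.19 in SFA and −0.26 in NTS mice, beside −0.11 and −0.06. For LFA against SFA the medians were 0.51 and −0.17, and for NTL against NTS 0.78 and −0.25. Apart from *Hdc*, no gene had every LFA or every NTL array above every control, against 4.56% and 6.36% of all probes.

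*Hdc* also had the widest range and the narrowest spread inside groups of the 7 genes. Between the lowest and the highest of the 20 mice it varied 10.9-fold, compared with 8.35-fold for *Cma1*, 5.33-fold for *Fcer1a*, 4.22-fold for *Mcpt4*, 3.49-fold for *Cpa3* and 3.29-fold for *Kit*. The pooled SD inside groups was 0.34 for *Hdc* and 0.36 for *Kit*, against 0.72 for *Cma1* and a median of 0.58 over all tested probes.

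To set *Hdc* beside the granule proteases within each mouse, the 4 protease levels were each centered on their mean over the 20 arrays and averaged, and the difference of centered *Hdc* from this average was taken. The difference was 1.06 ± 0.29 (SD, n = 4) in LFA and 0.84 ± 0.47 in NTL mice. It was −0.36 ± 0.29 in control, −0.60 ± 0.38 in SFA and −0.94 ± 0.97 in NTS mice. All LFA mice (0.80 to 1.42) exceeded all controls (−0.61 to 0.03), and so did all NTL mice (0.25 to 1.39). The protease average itself was 0.02 in control, −0.18 in SFA, 0.24 in LFA, −0.22 in NTS and 0.14 in NTL mice, with the lowest mouse, NTS replicate 4, at −1.44. In this mouse the low protease average put the difference at 0.46, above the rest of its group. Over the 20 mice *Hdc* and the protease average had a Pearson r of 0.41, given as a description since the points share the array scale and the group differences.

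**Figure D3:**
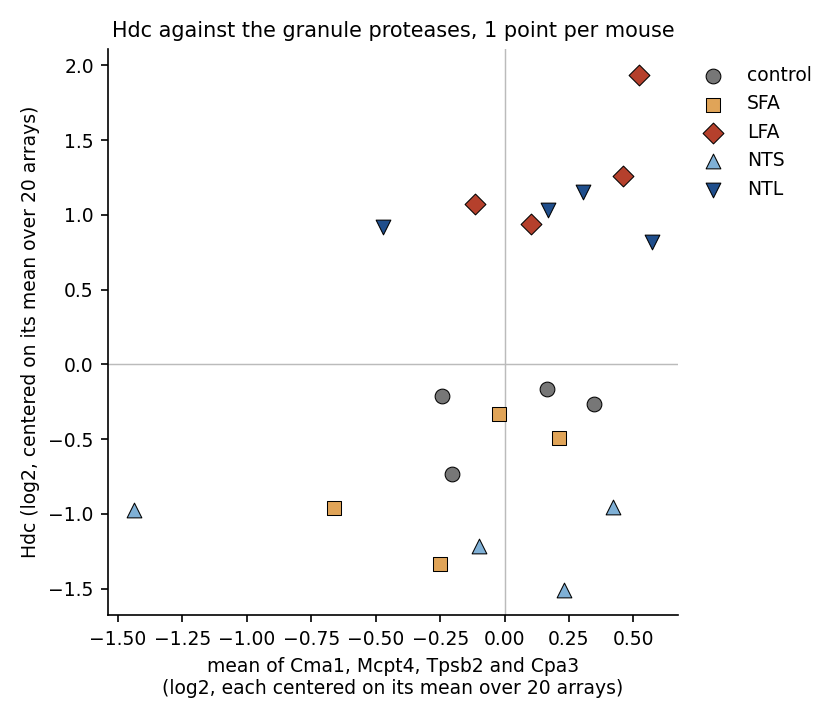
Level of *Hdc* (y axis) against the mean of *Cma1*, *Mcpt4*, *Tpsb2* and *Cpa3* (x axis), both log2 and centered on the mean over 20 arrays, 1 point per mouse and 1 color per group. LFA and NTL mice lie above the others in *Hdc* while their protease means, 0.24 and 0.14 on average, fall in the range of the control mice (−0.24 to 0.35), as do 4 of the 8 single mice, the others lying at 0.46, 0.52, 0.57 and −0.47.

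Some of the genes varied together between mice of the same group. With the group means removed, *Cpa3* and *Fcer1a* had an r of 0.88 over the 20 arrays, of 0.86 without control replicate 2, whose levels of both genes were high, and of 0.89 without NTS replicate 4. Most of the other high values rested in part on NTS replicate 4, but not that of *Mcpt4* with *Cpa3*. *Mcpt4* had an r of 0.86 with the brighter *Tpsb2* probe, 0.76 with the other and 0.66 with *Cpa3*, and without that mouse the values were 0.66, 0.41 and 0.71. *Cma1* had an r of 0.83 with the other *Tpsb2* probe and 0.64 with *Mcpt4*, or 0.68 and 0.31 without that mouse. *Hdc* had an r of 0.51 with *Fcer1a*, 0.47 with *Cpa3* and 0.03 with *Mcpt4*, or 0.54, 0.54 and 0.24 without NTS replicate 4. The r between *Kit* and the other probes ran from −0.37 to 0.10, but its lowest value, with *Fcer1a*, was 0.21 without control replicate 2. These values describe 20 arrays that share a scale and carry no test.

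**Figure D4:**
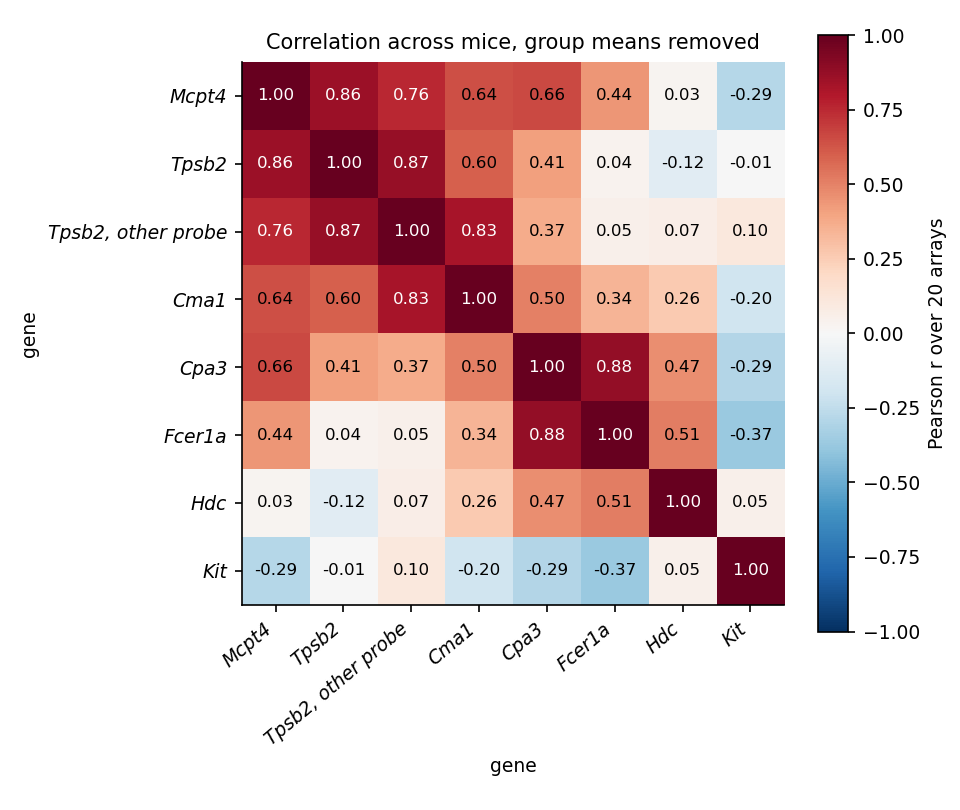
Pearson correlation across the 20 mice after the group means were removed, for each pair of mast cell gene probes (both axes list the genes; the color scale runs from −1 to 1 and each cell prints its r). The cell of *Cpa3* and *Fcer1a* reads 0.88, that of the *Tpsb2* probes 0.87 and that of *Mcpt4* with the brighter *Tpsb2* probe 0.86, and off the diagonal the *Kit* row runs from −0.37 to 0.10.

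Outside the mast cell set, the genes whose levels over the 20 mice were most like the protease average were *Fxyd2* (r = 0.84), the chymase paralog *Cma2* (0.78), *Anxa8* (0.78), *Arhgdib* (0.76), *Prr15* (0.76), *Rasl10a* (0.75), *Isyna1* (0.74) and *Rpp25* (0.74). With the group means removed they were *Cma2* (0.97), *Fbxo44* (0.89), *Cbx5* (0.87), the transmembrane tryptase gene *Tpsg1* (0.86), *1700088E04Rik* (0.86), *Prkag1* (0.84), *Map1lc3a* (0.84) and *Nme4* (0.84). *Cma2* was the only gene in both sets of 8. Its r of 0.97 was 0.94 without NTS replicate 4, and that of *Tpsg1* was then 0.82. How far the *Cma1* and *Cma2* probes also bind RNA of close paralogs was not tested. Like *Mcpt4*, *Cma2* and *Tpsg1* were not called in LFA (−0.38 and −0.11) or NTL mice (−0.43 and −0.46).

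The list of other granule proteases had 8 genes, of which 6 could be tested. *Gzmb*, granzyme B, which cytotoxic lymphocytes also express, was the only one called, with a rise of 1.85 ± 0.36 (log2, SE, adjusted p = 0.00909, limma) in LFA and 1.96 (adjusted p = 0.0029) in NTL mice, and both calls were lost with normexp background correction. The tryptase gene *Tpsab1* was not well above background on any control array but was on 3 of 4 LFA and 2 of 4 NTL arrays. Where no array of a group was well above background, values under the lowest such signal of their array were raised to it for the fold. This fold is an estimate and not a lower bound. For *Tpsab1* it was 1.24 in LFA mice (adjusted p = 0.161, limma on the values as measured) and 1.36 in NTL mice (adjusted p = 0.108), neither called. Under 27 processing alternatives the LFA change ran from −0.21 to 1.71 on the log2 scale and was called in 1. Against NTS mice the *Tpsab1* fold, taken in the same way, was 2.40 in NTL mice (adjusted p = 0.011, limma). *Mcpt1* and *Mcpt2*, the chymases of mucosal mast cells, were not well above background on any array. The median of the list was 0.47 in LFA and −0.08 in NTL mice.

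Most of the granule and mediator synthesis genes rose with long material. Of 10 genes, 6 rose and none fell in both LFA and NTL mice, with medians of 1.34 and 1.26. Of all probes, 2.21% were called higher in LFA and 3.64% in NTL mice, the share for each list count below. The 4 genes not called were *Slc18a2*, *Ndst2*, *Hs3st1* and *Cd63*. The enzymes of leukotriene synthesis rose together. *Alox5*, 5-lipoxygenase, lay between −0.25 and 0.93 in controls, between 1.78 and 2.14 in LFA mice and between 1.82 and 2.45 in NTL mice, and rose by 1.69 ± 0.26 (1.685, adjusted p = 0.00154, limma) and 1.72 (adjusted p = 0.000569). Its partner *Alox5ap* rose by 1.32 and 1.45 (adjusted p = 0.00438 and 0.00098, limma), and *Ltc4s*, leukotriene C4 synthase, by 1.36 and 1.07 (adjusted p = 0.00741 and 0.0161, limma). In none of these 3 genes did a mouse given long material overlap with a control. Of all probes, 4.56% had every LFA array and 6.36% every NTL array above every control.

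*Hpgds*, the hematopoietic prostaglandin D synthase, had levels of −5.31 to −4.30 in controls, −3.90 to −1.92 in LFA mice and −2.24 to −1.90 in NTL mice. It rose by 1.83 and 2.79 (adjusted p = 0.00992 and 0.000198, limma), but with normexp background correction the changes of *Hpgds* were 0.47 (adjusted p = 0.131) and 0.98 (adjusted p = 0.00746), and neither reached the call. *Tph1*, which starts serotonin synthesis, rose by 2.002 and 1.70 (adjusted p = 0.00955 and 0.0137, limma), and *Srgn*, the serglycin core protein that holds proteases in the granule, by 1.56 and 1.59 (adjusted p = 0.00968 and 0.00436, limma). *Slc18a2*, the vesicular transporter that loads histamine and serotonin, had changes of −0.35 and −0.08 and was not called, nor was *Ndst2*, which acts in heparin synthesis, with 0.54 and 0.53. Under the 27 processing alternatives 4 to 6 genes of the list were called higher in LFA mice, with *Srgn*, *Alox5* and *Alox5ap* called in all of them. LFA exceeded SFA in 4 of the 10 genes and NTL exceeded NTS in 6, beside 1.03% and 4.92% of all probes called higher. *Alox5*, *Alox5ap* and *Srgn* are also expressed by macrophages and neutrophils.

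**Figure D5:**
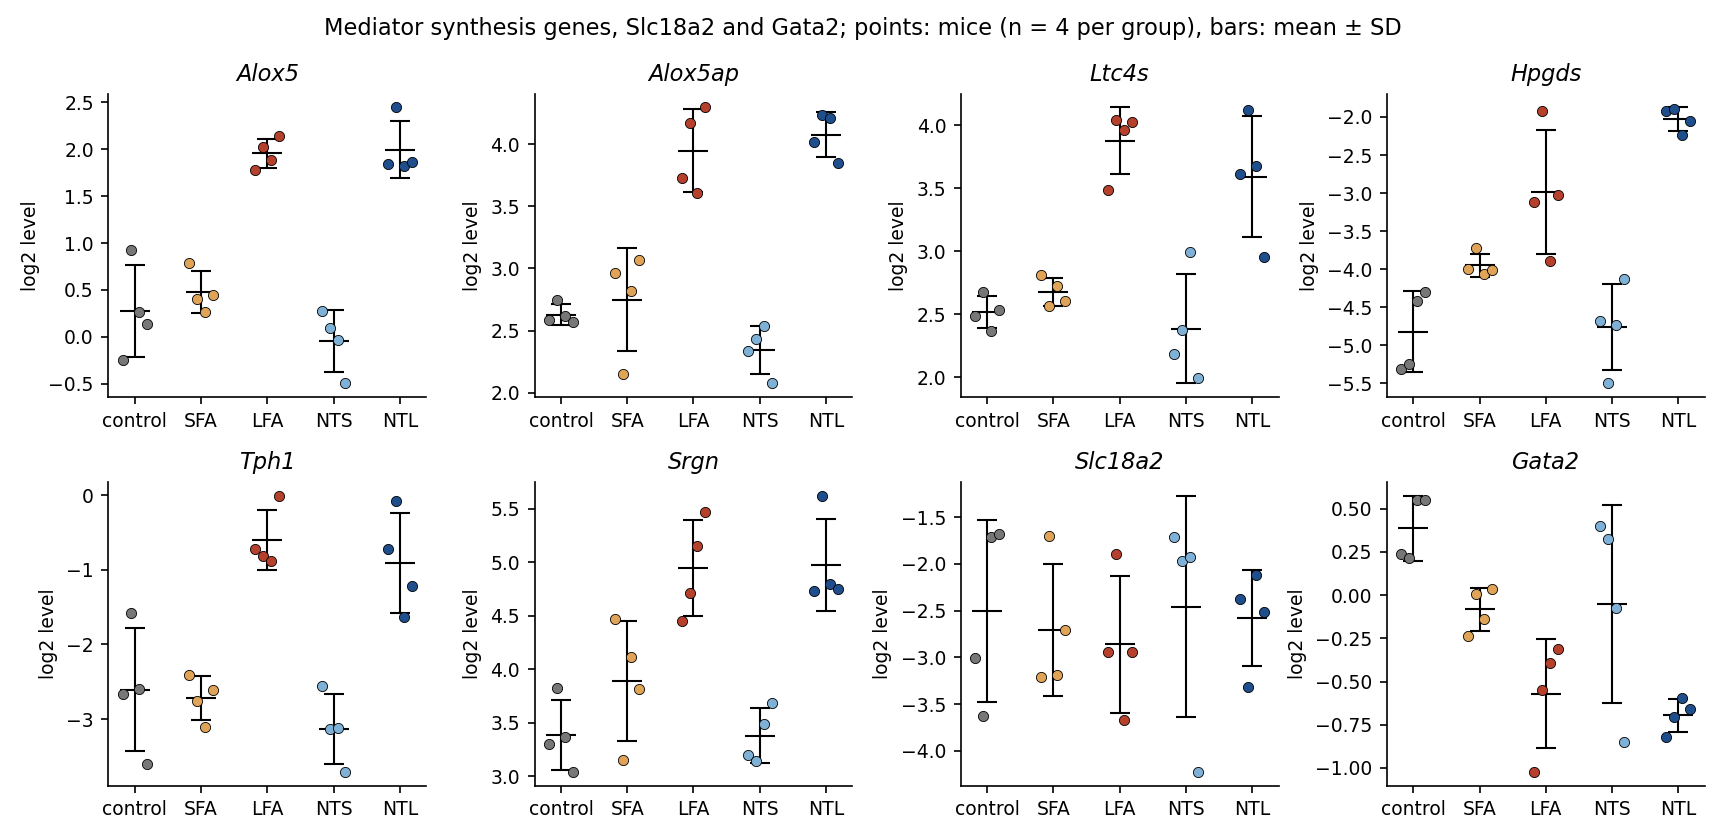
Log2 level (y axis) of 6 granule and mediator synthesis genes, of *Slc18a2* and of *Gata2* in the 5 groups (x axis); points are mice (n = 4 per group) and bars show the mean ± SD. *Alox5* in LFA and NTL mice lies at 1.78 or above while the highest control is at 0.93, *Slc18a2* overlaps between all groups, and *Gata2* in LFA and NTL mice lies below every control.

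Among 10 other mast cell receptor genes, 2 were called in LFA and 3 in NTL mice, all higher, with medians of 0.67 and 0.62. *C5ar1*, the receptor for complement C5a, rose by 2.21 and 2.47 (adjusted p = 0.00102 and 0.000189, limma), and *Cysltr1*, a receptor for cysteinyl leukotrienes, by 1.90 and 2.17. *Fcer1g*, the signaling γ chain that FcεRI shares with Fc receptors of other myeloid cells, changed by 1.38 in LFA (adjusted p = 0.0784, limma) and rose by 2.07 in NTL mice (adjusted p = 0.00856). The mast cell-specific receptors *Mrgprb1* (0.16 and −0.35) and *Mrgprb2* (0.50 and 0.02) were not called.

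Of 13 genes of receptor signaling, 5 were called higher in LFA and 6 in NTL mice, with none lower and medians of 1.04 and 1.11. Among them were *Prkcb*, protein kinase C β (1.65 and 1.81), the adaptor *Lcp2* (1.64 and 1.55, but 0.54 and 0.45 and not called with normexp), and the kinase *Btk* (1.39 and 1.55). *Lat2*, an adaptor of mast cells and B cells, rose by 1.93 in NTL mice, a call kept under 9 of 27 alternatives. The number called in LFA mice was 3 with the slide as a block, 2 without control replicate 2 and 1 when only the compared groups were fitted. The number in NTL mice was 2 with the slide as a block and 4 without control replicate 2.

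Genes that inhibit mast cell activation were called higher in 3 of 8 cases in LFA and in 5 of 8 in NTL mice, with medians of 1.31 and 1.77. This list and those of receptors and receptor signaling are named for a role in mast cells. Which cells carried their changes was not tested. *Fcgr2b*, the inhibitory Fcγ receptor, rose by 2.97 and 3.22 (adjusted p = 0.00563 and 0.00153, limma), and *Lilrb4*, an inhibitory receptor of mast cells and macrophages, by 2.73 and 3.12 (adjusted p = 0.00101 and 0.00015, limma). *Ptpn6*, the phosphatase SHP-1, rose by 1.36 and 1.32, and *Cd200r1*, the receptor for CD200, rose by 2.21 in NTL mice. With the slide as a block, *Ptpn6* and *Cd200r1* were not called in NTL mice (adjusted p = 0.062 and 0.057, limma), which left 3 genes called. The LFA call of *Ptpn6* was kept under 22 of 27 alternatives.

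The mast cell transcription factors did not rise as a group. Of 9 genes, none was called in LFA and 1 was called in each direction in NTL mice (1.75% and 3.17% of all probes were called lower in LFA and NTL mice), with medians of −0.14 and −0.26. *Gata2* levels were 0.21 to 0.55 in controls, −1.02 to −0.31 in LFA mice and −0.82 to −0.60 in NTL mice, so that the mice given long material lay below every control, as did 11.7% and 13.9% of all probes. Its change was −0.96 ± 0.25 (adjusted p = 0.0393, limma) in LFA, short of the 2-fold limit, and it fell by 1.08 ± 0.25 (adjusted p = 0.0136) in NTL mice, a call kept under all 27 alternatives (−1.15 to −1.01). Endothelial cells and adipose precursors also express *Gata2*. *Mitf* changed by −0.14 and −0.13 and was not called, and *Runx1*, a factor of many blood cells, rose by 1.42 in NTL mice.

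Among 9 testable ligands and growth factors, 2 were called higher in each group and none lower, with medians of 0.85 and 0.91. *Il10* was not well above background in controls. With control values raised as for *Tpsab1*, it exceeded them 3.23-fold in LFA mice and 4.03-fold in NTL mice. The adjusted p on the values as measured was 0.00556 in LFA and 0.000815 in NTL mice (limma). With normexp the *Il10* changes were 0.14 and 0.24 and neither was called (adjusted p = 0.646 and 0.438, limma). *Il4* rose by 1.32 in LFA mice (adjusted p = 0.0364, limma), a call kept under 15 of 27 alternatives and lost, among others, with normexp (0.05, adjusted p = 0.893), the slide block and the replicate block. *Il13*, well above background on 3 of 4 NTL and no control arrays, was 2.68-fold higher in NTL mice by the same measure (adjusted p = 0.00372, limma). It too was not called with normexp (0.06, adjusted p = 0.889). *Kitl*, the KIT ligand, had changes of −1.61 and −1.25, and *Il33*, an alarmin that activates mast cells, of 0.93 and 1.36 (adjusted p = 0.215 and 0.0704, limma), none called. For *Kitl*, control replicate 2 had a level of −5.13, against −0.18 to 0.74 in the other controls. *Il3* and *Il9* were not well above background on any array.

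Among markers of other cells that can express *Hdc* or the mediator genes, those of macrophages had the largest median changes. Of 10 macrophage markers, 6 rose in LFA and 7 in NTL mice, with medians of 1.82 and 2.26 and none lower. *Msr1* rose by 3.13 and 3.01, *Adgre1* by 2.13 and 2.46, *Cd68* by 1.95 and 2.39 and *Mrc1* by 1.92 and 2.26. The mean level of the list was 1.33 to 1.64 in control, 1.19 to 1.85 in SFA, 2.33 to 3.39 in LFA, 1.23 to 1.70 in NTS and 3.11 to 3.42 in NTL mice. All LFA and NTL mice stood above all others in this list, as they did in *Hdc*. The part of macrophages in the *Hdc*, mediator, receptor, signaling and inhibitor results was not tested.

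Basophils store histamine as well, and of 6 basophil markers 1 was called in each group, *Csf2rb2* (2.20 and 2.79), with medians of 0.55 and 0.10. The basophil protease genes *Mcpt8* (0.39 and −0.17) and *Prss34* (−0.10 and −0.15) were not called, and *Mcpt8* was well above background on 1 control, 2 LFA and no NTL array. The mean level of the list was −3.22 to −2.03 in control, −2.28 to −1.64 in LFA and −2.23 to −1.56 in NTL mice. Of 9 neutrophil markers, *Cxcr2* was called in LFA mice (2.56, and 0.78 and not called with normexp) and none in NTL mice, with medians of 0.51 and −0.29, and the list ran from −1.02 to 1.80 in control, −0.01 to 1.91 in LFA and −0.54 to 0.40 in NTL mice. Of 6 eosinophil markers 1 rose in each group, *Ear1* by 1.30 and 1.87, with its LFA call kept under 14 of 27 alternatives. Of 6 markers of other KIT-expressing cells, none was called in LFA and 2 in NTL mice, *Mlana* (1.57) and *Flt3* (1.05). With normexp neither was called, and *Flt3* kept its call under only 7 of 27 alternatives (0.68 to 1.33).

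The tissue around the mast cells changed as well. Of 10 skeletal muscle markers, 2 fell in LFA and 4 in NTL mice, with medians of −1.02 and −1.12, but quantile normalization left 0 and 1 called. Of 8 adipocyte markers, 1 fell in LFA and 4 in NTL mice, which quantile normalization reduced to 0 and 2. Of 8 fibroblast markers 1 and 4 rose, and 0 and 2 with the slide as a block. None of 7 mesothelial, 7 liver or 3 testable lung markers was called, although the liver list varied widely, from −2.54 to 8.56 over the arrays of all groups, with NTS replicates 4 (8.56) and 3 (8.44) highest. Whether this bears on the low protease levels of NTS replicate 4 was not tested. No gene of any list was called in SFA or NTS mice against controls.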

How the data were processed

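Total RNA of frozen diaphragm tissue from 20 mice was labeled with Cy3 and hybridized to Agilent single-color arrays on 3 slides, and the authors extracted spot intensities with Agilent Feature Extraction (version 10.7.3.1, from the submitters' processing notes). The deposited values used here were the processed intensity of each spot, background-corrected by that software and not scaled between arrays. Outlier spots (92 to 204 per array) and control spots were left out, log2 was taken, the 75th percentile of each array (over 59305 noncontrol spots) was subtracted, and spots of a probe were averaged. A table of log2 values that the authors deposited, normalized and centered per probe, served as an alternative. The 36931 probes well above background on at least 4 arrays were fitted with limma (version 3.58.1, R 4.3.3) over all 5 groups, without covariates, and p-values were adjusted by Benjamini-Hochberg over all of them. A probe was called at an adjusted p under 0.05 and a change of at least 2-fold. A gene with several probes was represented by its brightest tested probe, except that all probes of the mast cell genes were kept. On simulated data for LFA against controls (36931 probes), 14, 24, 42 and 50 of 50 probes changed by 1.5, 2, 3 and 4 on the log2 scale were called. A change of 1.5 was thus often missed in the simulation. Only these probes were changed, fewer than the 1462 called in LFA mice, so the adjusted threshold was stricter than in the data. The simulation therefore does not give the rate of missed changes in the data. With 4 arrays per group, their number limits the precision. Groups came from the sample labels.

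The 8 genes and the 19 lists (164 genes) were chosen with earlier results of these data known. The text names the 8 genes, at most 4 called genes per list with the largest change, 12 genes named in advance for their role, and the 8 genes most like the protease average, and any other gene named was chosen after its values were seen. Alternatives were normexp with an offset of 50, quantile normalization, other filters, the mean of the probes of a gene, the slide or the replicate number as a block, fits of only the compared groups, the authors' table and each array left out. The methods' unequal-variance analysis of variance was also run. The same alternatives for the gene lists were chosen after seeing the data. Probe positions are those of the scanner files (NCBI37), and promoters and accession names came from RefSeq tables.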

Additional observations from a re-analysis of the deposited data

Results flagged for a closer look

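Of 90 sets of 4 mice (a gene of the mast cell set or of the named list genes in 1 group), 6 (6.67%) held a mouse far from the other 3, where chance gives about 1 in 20. *Cma1* in NTS replicate 4 had a level of −1.99 (others −0.05 to 0.14). *Mitf* had 3.86 in control replicate 2 (others 2.19 to 2.38) and 1.76 in NTS replicate 3 (others 2.37 to 2.46). *Kitl* had −5.13 in control replicate 2 (others −0.18 to 0.74) and −4.80 in NTS replicate 4 (others 0.13 to 0.96). *Il33* had 3.28 in control replicate 2 (others 1.65 to 1.91). The causes were not tested.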

How the results depend on the processing

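*Hdc* was called in all 28 alternatives in each of the 4 comparisons of long material with controls or short material. Its change ran from 1.43 to 1.77 in LFA (adjusted p 0.000377 to 0.041, limma) and from 1.19 to 1.39 in NTL mice (0.0012 to 0.0223) against controls. The number of mast cell genes called in LFA mice was 1, and 2 without control replicate 2, when *Fcer1a* joined (1.70, adjusted p = 0.0378), a range of 1 to 2 over the arrays left out. The *Fcer1a* change in LFA mice ran from 0.92 to 1.70 (adjusted p 0.0378 to 0.258). All other counts of mast cell genes kept their value. Of the alternative values of single mast cell genes, 1651 left the call unchanged and 1, that of *Fcer1a*, newly passed the threshold. Those 1651 include values of the authors' table, which carry no test. Uncalled changes could switch sign, as did *Tpsb2* in LFA (−0.04 to 0.24) and *Kit* in NTL mice (−0.21 to 0.26) against controls. The *Hdc* difference in NTS mice ran from −0.95 to −0.71 and was never called. With the replicate number as a block, *Hdc* changed by 1.64 (adjusted p = 0.00443) and 1.32 (0.00797) in LFA and NTL mice, and over all probes 678 rose and 562 fell in LFA mice. The labels do not say whether shared numbers pair the mice, and the data gave no sign of it. Over 40 same-numbered pairs the correlation of deviations from the group means ran from −0.68 to 0.69. Of 20 arrays, 4 correlated best with their own number. With so few arrays per group, these values cannot exclude pairing. The split of all calls in LFA mice was 816 higher and 646 lower, and 983 and 312 after quantile normalization, and in NTL mice 1344 and 1169, then 1559 and 598. By the methods' unequal-variance analysis over the 5 groups, *Hdc* had an adjusted p of 0.00346 and *Fcer1a* of 0.0896, and of 10961 probes that differed at least 2-fold 4528 passed unadjusted and 2656 after Benjamini-Hochberg. Levels near background limit *Ms4a2*, *Tpsab1*, *Gzmb*, *Hpgds*, *Il4*, *Il10* and *Il13*, the last 5 of which lost their calls with normexp, and 4 mice a group leave protease rises of up to 1.63 on the log2 scale (*Cma1* in NTL mice) undecided.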

Other observations

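The mast cell genes were left out of the ranking of genes by likeness to *Hdc*, and the highest r among them was 0.75 for *Fcer1a*. Outside the set, the genes whose levels over the 20 mice were most like *Hdc*, chosen after their values were seen, were *Plaur* (r = 0.97), *Marco* (0.96), *Socs3* (0.95), *Gpr171* (0.94), *Cd14* (0.94), *Igj* (0.94), *Slc2a6* (0.94) and *Ccl6* (0.93). *Marco* is a scavenger receptor of macrophages and *Cd14* a monocyte and macrophage receptor for lipopolysaccharide, but the list was not sorted by cell type. Against controls *Marco* rose by 3.92 in LFA and 3.57 in NTL mice (adjusted p = 0.000173 and 0.000198, limma), and *Cd14* by 2.29 and 2.36 (adjusted p = 0.000745 and 0.000253, limma). Of the others, *Igj* rose by 3.02 and 3.34, *Ccl6* by 2.89 and 2.86 and *Slc2a6* by 2.77 and 2.87. *Gpr171* rose by 1.625 and 1.56, *Socs3* by 1.54 and 1.48 and *Plaur* by 1.425 and 1.39. With the group means removed, the genes most like *Hdc* were others, *Ovgp1* (0.81), *Cd83* (0.78), *Clec7a* (0.73), *Aph1b* (0.72), *Tyrobp* (0.72), *Cd48* (0.71), *Paqr8* (0.70) and *Trim9* (0.70). These r values describe arrays that share a scale and the differences between groups, and no test is attached to them.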
